A study of Mus musculus with 4 samples.

Results

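Calcium and magnesium leave the distal nephron through a small set of channels, exchangers, pumps and binding proteins, and 9 of their genes were followed here across the cell clusters of mouse kidney cortex: *Trpm6*, *Trpm7*, *Trpv5*, *Slc8a1*, *Calb1*, *Atp2b1*, *Atp2b4*, *Cnnm2* and *Casr*. They were chosen by name, and each has 1 row among the 19609 gene rows used. Nuclei came from 4 male mice of mixed strain, 1 for each condition, all fed doxycycline. Control mice carried only the TRE-hKLF6 transgene, a human *KLF6* sequence that stays off without its activator. The hKLF6OE mice (genotype CAG-rtTA,TRE-hKLF6) also carried that activator under the broadly active CAG promoter, so the transgene was not limited to the tubule. In each genotype 1 mouse received a single injection of 2 mg/kg aristolochic acid I (AAI), a plant toxin that damages DNA mainly in the proximal tubule, and was studied after 24 hours, and the other mouse was labelled as having no treatment. The mice's ages are not given in the sources used here. The question the design poses is how injury and *KLF6* overexpression, alone and together, relate to expression in each cell type, and here it is asked of ion transport in the distal nephron.

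The distal convoluted tubule (DCT) and connecting tubule (CNT) set the final urinary content of magnesium and calcium by transport through the cells. Magnesium enters from the urine through TRPM6 channels, which can assemble with the related channel kinase TRPM7, and CNNM2 lies in the basolateral membrane and is needed for normal magnesium reabsorption. Calcium enters through TRPV5, is carried and buffered by calbindin-D28k (*Calb1*), and leaves on the blood side through the sodium-calcium exchanger NCX1 (*Slc8a1*) and the plasma membrane calcium pumps PMCA1 (*Atp2b1*) and PMCA4 (*Atp2b4*). In the thick ascending limb of the loop of Henle (LH-AL clusters), both ions pass between the cells, and the calcium-sensing receptor CaSR (*Casr*) restrains that passage when blood calcium is high.

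In the mouse genome build GRCm38 (mm10), which the authors' reference used, GENCODE places the members on 8 chromosomes. *Slc8a1* spans 365 kb (chr17:81373105-81738377, minus strand), *Trpm6* 143 kb (chr19:18749983-18892511, plus strand), *Cnnm2* 119 kb (chr19:46761596-46880192, plus strand), *Atp2b1* 112 kb (chr10:98914406-99026143, plus strand) and *Atp2b4* 102 kb (chr1:133699457-133801041, minus strand). *Trpm7* spans 84.7 kb (chr2:126791565-126876230, minus strand), *Casr* 68.4 kb (chr16:36493696-36562141, minus strand), *Trpv5* 28.6 kb (chr6:41652173-41680769, minus strand) and *Calb1* 26.8 kb (chr4:15881264-15908064, plus strand). The span matters for these libraries, since nuclear RNA was counted over introns as well as exons.

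RefSeq promoter sequence (GRCm38.p6) matched 8 of the 9 members, all but *Calb1*. The 250 bases before the start are printed for *Trpm6* (chr19:18749480-18749729, plus strand), *Slc8a1* (chr17:81738388-81738637, minus strand) and *Cnnm2* (chr19:46761359-46761608, plus strand), because these genes were lower together in the DCT of the uninjured hKLF6OE mouse and differ in the motifs below. Each runs 5′ to 3′ on the gene's strand, and capitals mark matches, on either strand, to CCNCNCCC or to the GC box GGGCGG, C-rich sequences of the kind that zinc finger factors of the KLF family bind.
Trpm6: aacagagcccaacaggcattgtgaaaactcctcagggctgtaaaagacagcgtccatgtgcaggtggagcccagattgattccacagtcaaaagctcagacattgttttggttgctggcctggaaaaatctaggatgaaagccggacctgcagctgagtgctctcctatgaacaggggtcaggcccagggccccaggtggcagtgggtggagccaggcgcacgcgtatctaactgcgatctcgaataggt
Slc8a1: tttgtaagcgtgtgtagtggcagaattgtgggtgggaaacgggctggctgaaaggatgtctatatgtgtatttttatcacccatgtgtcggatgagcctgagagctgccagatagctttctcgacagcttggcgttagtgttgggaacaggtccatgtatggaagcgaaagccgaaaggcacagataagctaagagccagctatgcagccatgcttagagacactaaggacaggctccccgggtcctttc
Cnnm2: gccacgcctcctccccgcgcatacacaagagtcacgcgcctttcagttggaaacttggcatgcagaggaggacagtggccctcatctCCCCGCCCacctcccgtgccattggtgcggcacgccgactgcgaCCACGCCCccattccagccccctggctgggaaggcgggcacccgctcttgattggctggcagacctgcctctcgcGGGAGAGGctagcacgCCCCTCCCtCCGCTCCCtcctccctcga
*Cnnm2* held 5 matches to CCNCNCCC and 1 to GGGCGG, while *Trpm6* and *Slc8a1* held none of either, and neither did *Trpm7* or *Atp2b4*. The *Atp2b4* window (chr1:133753748-133753997) lies at a start inside the gene's span and does not cover the 5′ end of that span. The *Trpm6* window ends at 18749729, before the GENCODE span begins at 18749983, so the bases between them were not searched. Matches to CCNCNCCC were also found for *Trpv5* (2), *Casr* (1) and both *Atp2b1* starts (3 each), and only *Atp2b1* also held GGGCGG among these. The motifs can overlap, since GGGCGG read on the other strand is CCGCCC. Of all 32851 promoters cut to the same length, 45.9% held CCNCNCCC and 32.7% held GGGCGG, so their presence or absence is a description of these bases only.

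The table holds the mean over the nuclei of 1 cluster in 1 mouse of counts scaled to 10000 per nucleus, for 23 clusters, and the values below are on this scale unless they are called log2. Neither the number of nuclei nor the counts behind a value are in the table, so no counting interval can be given, and fewer nuclei with a transcript cannot be told apart from less transcript in each. As a guide to depth, 25.4 to 28.1% of genes were at 0 in DCT and 29.8 to 33.9% in CNT, but 60.5 to 63.4% in LH-AL-3. Of 56 markers checked over 12 cell types, 50 were highest in the clusters of their own type. These include the members *Trpm6* (DCT), *Slc8a1* and *Calb1* (CNT), which are no check apart from the levels given below. *Scnn1g* and *Atp6v1g3* are counted for more than 1 type. Of the other CNT markers, *Scnn1g* and *Klk1* were highest in CNT, and *Scnn1b* in collecting duct principal cells (8.66, against 8.02 in CNT). *Slc12a3*, the sodium chloride cotransporter of the DCT, averaged 167 in DCT, 49.6 in DCT_CNT and 11.5 in CNT. The proximal tubule marker *Slc5a12* was at 14.4 in DCT_CNT. Summed proximal tubule markers averaged 67.4 in DCT_CNT, 14.2 in DCT and 16.1 in CNT. The CNT markers that are no members summed to 4.94 in DCT_CNT, 4.71 in DCT and 22.2 in CNT. DCT_CNT thus carries RNA of more than 1 cell type, and its levels give no place between DCT and CNT. LH-AL-3 held *Slc12a1*, the cotransporter of the thick ascending limb, at 125, against 206 in LH-AL-1 and 156 in LH-AL-2. Its *Umod* level was 8.83, against 37 and 37.5 in these clusters and 10.5 in DCT. *Cldn16* was 0.397 in LH-AL-3, 0.335 in LH-AL-1 and 1.78 in LH-AL-2, and *Ptger3* was 6.97, 14.2 and 3.59. The 5 thick ascending limb markers summed to 142, 260 and 200 in the same order. Mouse *Klf6* in DCT was 0.134 in control, 0.329 in control with AAI, 0.156 in hKLF6OE and 0.312 in hKLF6OE with AAI. No row for the human transgene was used, so these values do not check the genotype labels.

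The 3 magnesium members, *Trpm6*, *Trpm7* and *Cnnm2*, were highest in the DCT. *Trpm6* in DCT was 21.6 in control, 19.1 in control with AAI, 15.4 in hKLF6OE and 17 in hKLF6OE with AAI, a mean of 18.3. All 4 mice lay above every value of DCT_CNT (mean 6.23, range 4.4 to 7.39), and the ranges of DCT_CNT and CNT (mean 3.15, range 2.18 to 5.1) overlapped. The fall from DCT to CNT was 4.24-fold to 8.75-fold within the 4 mice. Beyond these clusters *Trpm6* averaged 1.44 in the descending limb (LH-DL) and 0.877 in type A intercalated cells (IC-A), both with ranges that ran below 0.4, and in normal proximal tubule (PT) clusters it averaged between 0.0455 and 0.096. In LH-AL-3 it was listed at 0 in every mouse.

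*Trpm7* had the same first cluster but was present everywhere. In DCT it was 24.2 in control, 22.3 in control with AAI, 18.2 in hKLF6OE and 17.3 in hKLF6OE with AAI. The lowest of these was above the highest DCT_CNT value, 11.7, and DCT_CNT (mean 9.31) in turn lay above the next cluster without overlap. From there on the order was flat. The 5 normal PT clusters averaged 4.71 to 5.19, CNT averaged 4.1, and the lowest cluster, LH-AL-2, averaged 2.42. No column of *Trpm7* was at 0. DCT, DCT_CNT and CNT together held 30.1% of its summed cluster means, against 80.7% for *Trpm6*.

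*Cnnm2* was 9.14 in control, 7.28 in control with AAI, 6.96 in hKLF6OE and 7.05 in hKLF6OE with AAI in DCT. Its lowest DCT value was above its highest DCT_CNT value of 3.3. DCT_CNT (mean 2.82) and CNT (mean 2.75) did not differ beyond their spread, and in CNT the mice ran from 1.62 to 3.84. LH-AL-2 followed at 1.3, type B intercalated cells of IC-B-1 at 1.25 and IC-A at 1.11, all with overlapping ranges.

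**Figure D1:**
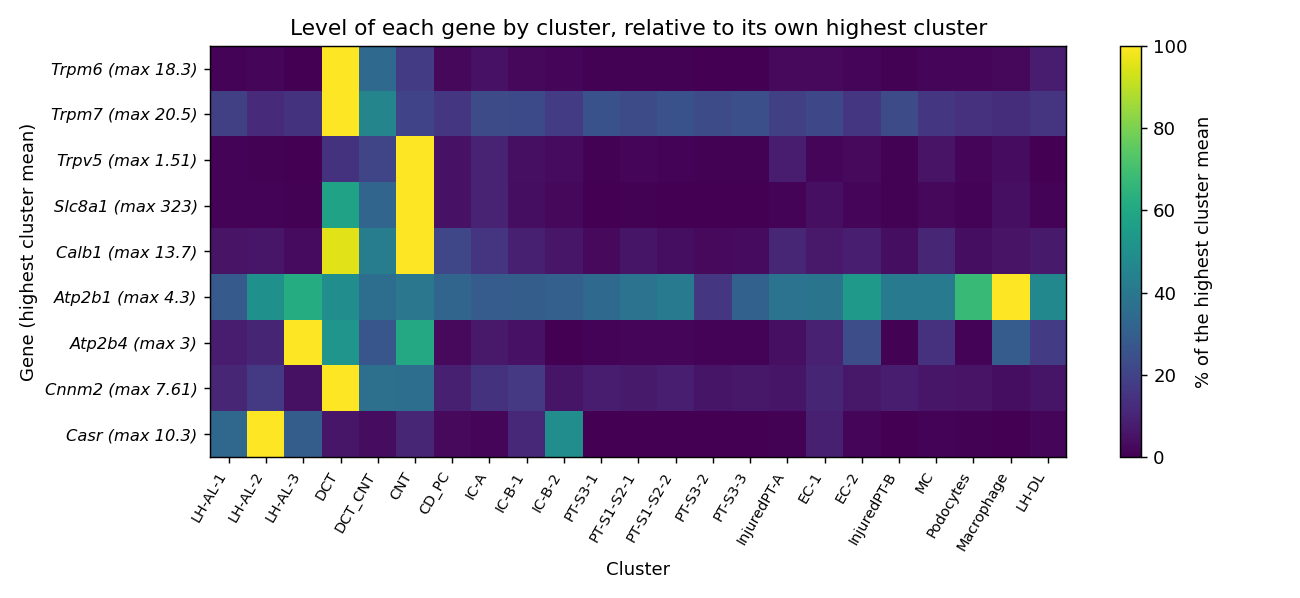
Mean over 4 mice of each gene in each of 23 clusters (columns), as a percentage of the gene's own highest cluster mean, which is printed beside its name in counts per 10000. *Trpm6*, *Trpm7* and *Cnnm2* peak in DCT, *Trpv5* and *Slc8a1* in CNT, and *Casr* in LH-AL-2. *Calb1* is nearly level between CNT and DCT, and *Atp2b1* is spread over all clusters.

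*Trpv5* and *Slc8a1* peaked later along the tubule, in CNT. *Trpv5*, the entry channel, was 1.29 in control, 1.67 in control with AAI, 1.72 in hKLF6OE and 1.38 in hKLF6OE with AAI in CNT. Every one of these was above its highest value in DCT_CNT, 0.445, and DCT averaged 0.224. Within mice CNT exceeded DCT by 5.95-fold to 7.5-fold. It was at 0 in 31 of 92 columns, and CNT was the only cluster where it reached the minimum of 0.5 used for comparisons.

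*Slc8a1*, the exchanger on the blood side, was 366 in control, 292 in control with AAI, 223 in hKLF6OE and 412 in hKLF6OE with AAI in CNT. In DCT the same mice gave 206, 191, 157 and 189. CNT, DCT (mean 186) and DCT_CNT (mean 105, range 82.5 to 144) formed 3 levels with no overlap. Within mice CNT was 1.42-fold to 2.18-fold above DCT. IC-A came next with a mean of 31.5 and a wide range of 9.48 to 57.3, and the principal cells of the collecting duct (CD_PC) averaged 16.3. Normal PT clusters averaged 0.867 to 1.77.

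*Calb1* was nearly level between CNT and DCT. It was 17.6, 8.65, 14.9 and 13.6 in CNT and 17.8, 10.2, 11.5 and 13 in DCT, in the order control, control with AAI, hKLF6OE and hKLF6OE with AAI. The ratio of CNT to DCT lay between 0.849 and 1.29 within mice and fell on both sides of 1. DCT_CNT averaged 5.83, below DCT without overlap and above CD_PC (mean 2.93) without overlap.

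**Figure D2:**
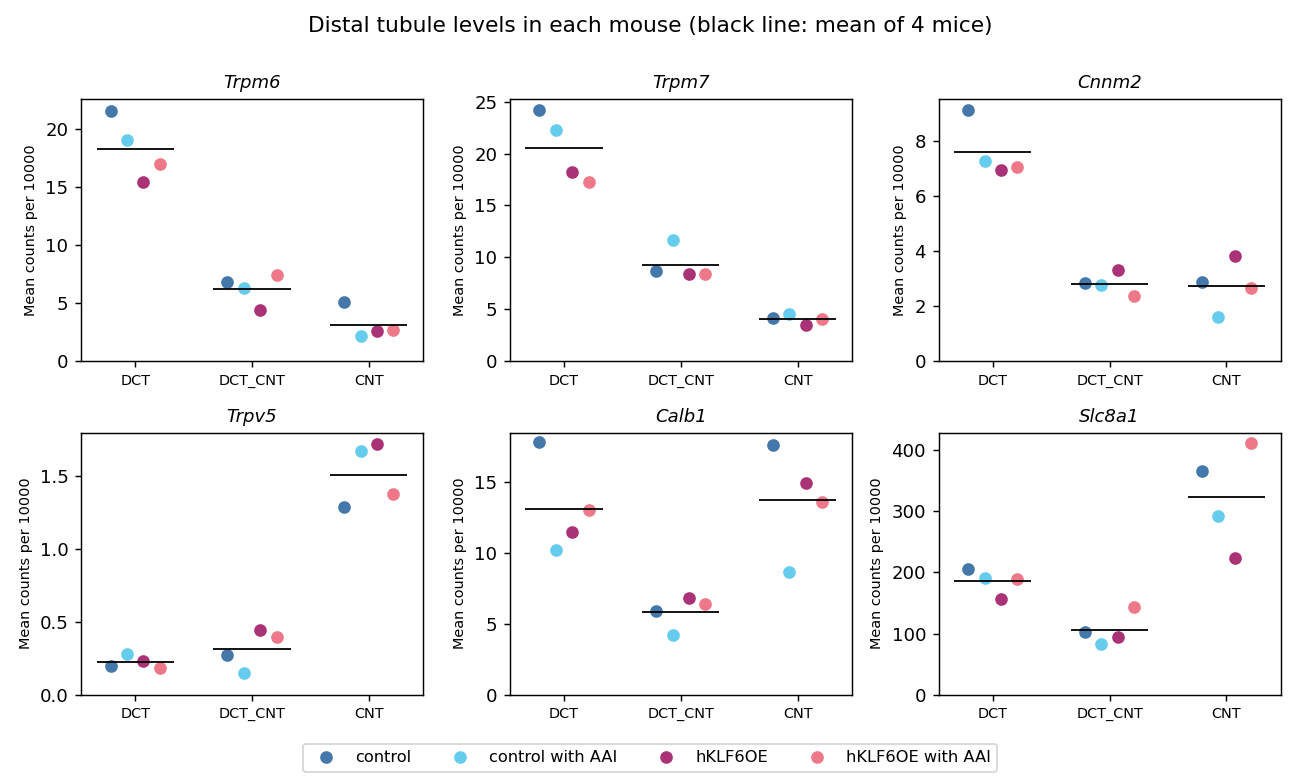
Levels of 6 genes in DCT, DCT_CNT and CNT, in counts per 10000 on axes that start at 0, with 1 point for each mouse and a black line at the mean of 4 mice. *Trpm6*, *Trpm7* and *Cnnm2* are lower in CNT than in DCT, while *Trpv5* and *Slc8a1* are highest in CNT and *Calb1* is alike in DCT and CNT.

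The calcium pumps did not share this place. *Atp2b1* was highest in macrophages, at 3.1 in control, 7.96 in control with AAI, 3.06 in hKLF6OE and 3.06 in hKLF6OE with AAI, so that 1 mouse set its mean of 4.3. That cluster had 38.3 to 63.4% of genes at 0, the highest share in control with AAI. Podocytes averaged 2.89, DCT 2.11 and CNT was within the same run of overlapping ranges, so most neighbours in its order did not differ beyond their spread. The exception was the lowest cluster, PT-S3-2, where the mice lay between 0.65 and 0.719, below all values of the next cluster. PT-S1-S2-2 was 2.09-fold to 3.34-fold above PT-S3-2 within mice.

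*Atp2b4* was highest by mean in LH-AL-3, at 4.01 in control, 5.56 in control with AAI, 0.984 in hKLF6OE and 1.46 in hKLF6OE with AAI. The genotypes did not overlap there, in a cluster with 60.5 to 63.4% of genes at 0. CNT followed with 2.17, 1.2, 2.07 and 1.78, and DCT with 2.04, 1.48, 1.1 and 1.65. The ranges of these 3 clusters overlapped. In CNT *Atp2b4* was 13.8-fold to 48.7-fold above CD_PC within mice, where it averaged 0.0711, and it was near 0 in normal PT clusters (0.0243 to 0.0441) and listed at 0 in every mouse in IC-B-2.

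*Casr* was highest in LH-AL-2 of the thick ascending limb and, after it by mean, in IC-B-2, 1 of the 2 clusters of type B intercalated cells. In LH-AL-2 it was 10.7 in control, 10.9 in control with AAI and 8.48 in hKLF6OE, and hKLF6OE with AAI was the highest mouse, for a mean of 10.3. All 4 values were above every value elsewhere. LH-AL-1, which held the higher *Slc12a1* level (206 against 156), had 4.12, 3.86, 1.66 and 4.15, so LH-AL-2 was 2.59-fold to 5.12-fold above it within mice. *Cldn16*, a claudin of the paracellular cation route, was also higher in LH-AL-2 than in LH-AL-1 in every mouse, by 3.62-fold to 19.1-fold.

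The second cluster for *Casr* was IC-B-2, with 7.04 in control, 5.14 in control with AAI, 4.45 in hKLF6OE and 3.62 in hKLF6OE with AAI. This was 3.53-fold to 5.52-fold above IC-B-1 (mean 1.13) within mice. Both clusters held *Slc26a4* (pendrin), the anion exchanger of type B cells, at 81.8 in IC-B-2 and 71.5 in IC-B-1. The 5 thick ascending limb markers summed to 8.59 to 19 in IC-B-2, against 192 to 212 in LH-AL-2 and 247 to 275 in LH-AL-1, and *Slc12a1* in IC-B-2 was 5.55, 1.08, 8.7 and 4.49 in the same order of mice. The ranges of *Casr* in IC-B-2 and LH-AL-1 overlapped, and those of the summed markers did not. In IC-B-2 46.3 to 53% of genes were at 0, against 36.8 to 41.7% in IC-B-1. The part of thick ascending limb RNA in the *Casr* values of IC-B-2 was not tested.

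**Figure D3:**
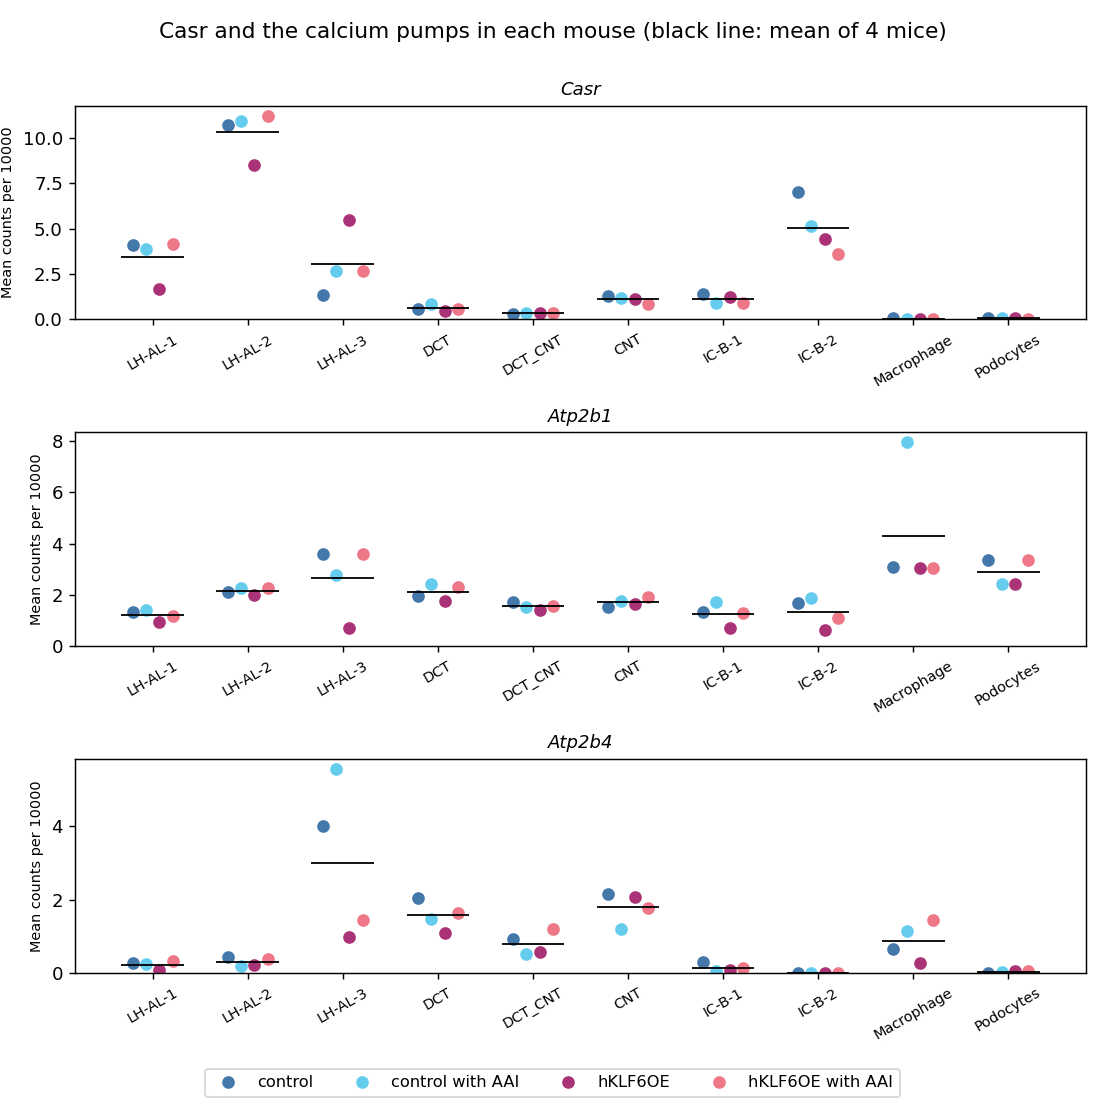
Levels of *Casr*, *Atp2b1* and *Atp2b4* in 10 clusters, in counts per 10000 on axes that start at 0, with 1 point for each mouse and a black line at the mean of 4 mice. *Casr* is highest in LH-AL-2 and IC-B-2, the macrophage mean of *Atp2b1* rests on the control mouse with AAI, and *Atp2b4* in LH-AL-3 is split by genotype.

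By their summed cluster means, 5 of the 9 members had at least 50% in DCT, DCT_CNT and CNT: *Slc8a1* 82.5%, *Trpm6* 80.7%, *Trpv5* 72.9%, *Calb1* 63% and *Cnnm2* 51.3%. Of the 8112 genes whose highest cluster mean reached 0.5, 0.308% did, and an equal spread over 23 clusters would put 13% there. *Atp2b4* had 37%, *Trpm7* 30.1%, *Atp2b1* 12.9% and *Casr* 7.6%. For *Casr*, the LH-AL clusters held 62% and the IC-B clusters 22.8%. The members were named for their known place in the distal nephron, so these shares describe how far each kept to it.

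The genes most like each member across the 92 columns were ranked by Pearson's r of log2(value + 1). These points share libraries and depth, and the r is a description. *Trpm6* was most like *Slc12a3* (r = 0.923), *Tsc22d1* (0.888) and *Sall3* (0.861), and *Cnnm2* was most like *Sall3* (0.870), *Trpm6* (0.854) and *Slc12a3* (0.835). *Trpm7* was most like *Lhx1* (0.749), *Trpm6* (0.742) and *Mapk10* (0.735). *Slc8a1* and *Calb1* were each other's nearest gene (0.894), followed for *Slc8a1* by *Tsc22d1* (0.855) and *Slc12a3* (0.844) and for *Calb1* by *Tsc22d1* (0.880) and *Tsc22d2* (0.835). *Trpv5* was closest to *Slc2a9* (0.870), *Adamts16* (0.864) and *Calb1* (0.752). *Casr* was closest to *Tmem72* (0.822), *Shd* (0.800) and the tight junction gene *Ocln* (0.781), and *Atp2b4* to *Inpp5a* (0.758), *Acss3* (0.738) and *Wnk1* (0.735). For *Atp2b1* the nearest genes, *Mbnl1* (0.638), *Elmo1* (0.592) and *Rab8b* (0.589), were all highest in macrophages.

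Conditions were compared as differences of log2(value + 1) between single mice, in the 3 LH-AL clusters, DCT, DCT_CNT and CNT. A gene was called higher or lower from a difference of 0.2, where the larger value was at least 0.5. No condition has a replicate, so no test was made, and counts are set beside the share of all genes called. Of 54 pairs of member and cluster, 42 reached the minimum in each comparison. The comparisons share mice, and their values are given side by side.

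Without injury, the members were mostly lower in hKLF6OE than in control. In DCT 6 of the 8 members over the minimum were lower and none was higher, where 16.7% of the 4041 genes tested were lower and 10.1% higher. The differences were -0.58 for *Calb1*, -0.53 for *Atp2b4*, -0.46 for *Trpm6*, -0.39 for *Trpm7*, -0.39 for *Slc8a1* and -0.35 for *Cnnm2*, while *Casr* (-0.12) and *Atp2b1* (-0.10) were within the threshold. The members' median was -0.39 and that of all genes -0.04. Over the 6 clusters 24 of 42 pairs were lower and 5 higher, against 26.4% and 19.8% of all pairs, and leaving out LH-AL-3 gave 20 of 36 lower and 3 higher, against 21.5% and 14.2%. The DCT marker list without *Trpm6* summed to 290 in control and 269 in hKLF6OE in this cluster, and the summed PT markers were 16.8 and 16.5. Of that list, *Klhl3* (29.6 and 22.2, -0.40) and *Wnk1* (82.7 and 68.4, -0.27) were lower past the threshold, as most members were, and *Slc12a3* (176 and 177) and *Pvalb* (1.18 and 1.25) were not. The part of these marker levels in the members' values was not tested.

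The size of the difference varied with the cluster, again for hKLF6OE against control without AAI. *Slc8a1* differed by -0.71 in CNT, -0.39 in DCT and -0.12 in DCT_CNT. *Trpm6* differed by -0.77 in CNT and -0.53 in DCT_CNT. *Cnnm2* (0.32) and *Trpv5* (0.25) were higher in CNT, and *Casr* in CNT (-0.13) was within the threshold. In LH-AL-1 all 6 members over the minimum were lower, from -0.27 for *Atp2b1* to -1.39 for *Slc8a1*, with *Casr* at -0.95, where 20.8% of all genes were lower and 13.6% higher. The summed DCT markers without *Trpm6* in LH-AL-1 were also lower, at 10.4 in control and 6.04 in hKLF6OE, and their part in these values was not tested. In LH-AL-2 *Casr* differed by -0.30 and *Calb1* by 0.35. LH-AL-3 held the widest values in both directions, 1.47 for *Casr* and -1.42 for *Atp2b1*.

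Without AAI, *Trpm7* was lower in hKLF6OE than in control, by any amount, in 22 of 23 clusters, all but IC-B-2 (2.99 against 2.86). Of these, 16 passed the threshold. All 23 rest on the same pair of single mice. They include the injured PT clusters InjuredPT-A and InjuredPT-B, which the study found almost only after AAI. In control and hKLF6OE, 62.6% and 40.8% of genes were at 0 in InjuredPT-A, and 51.3% and 55.7% in InjuredPT-B. Of the 1994 genes over the minimum in all 23 clusters, 1.15% were lower in at least 22, a limit set after the *Trpm7* values were seen. *Slc8a1* was lower in 20 of 23, *Trpm6* in 11 of the 11 clusters over its minimum and *Atp2b4* in 7 of 7. A cluster passes the minimum by its larger value, which for *Trpm6* and *Atp2b4* was the control value each time. Clusters left out ran both ways. *Trpm6* was 0.304 in control and 0.0707 in hKLF6OE in LH-AL-1, but 0.0367 and 0.175 in IC-B-2. *Atp2b4* was 0.26 and 0.076 in LH-AL-1, but 0.0446 and 0.115 in CD_PC. No share of all genes was taken for these counts. *Calb1* was below control in 8 and above it in 12 of 20 clusters, and *Cnnm2* below in 7 and above in 12 of 19. With AAI *Trpm7* was lower in hKLF6OE in 13 of 23 clusters.

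**Figure D4:**
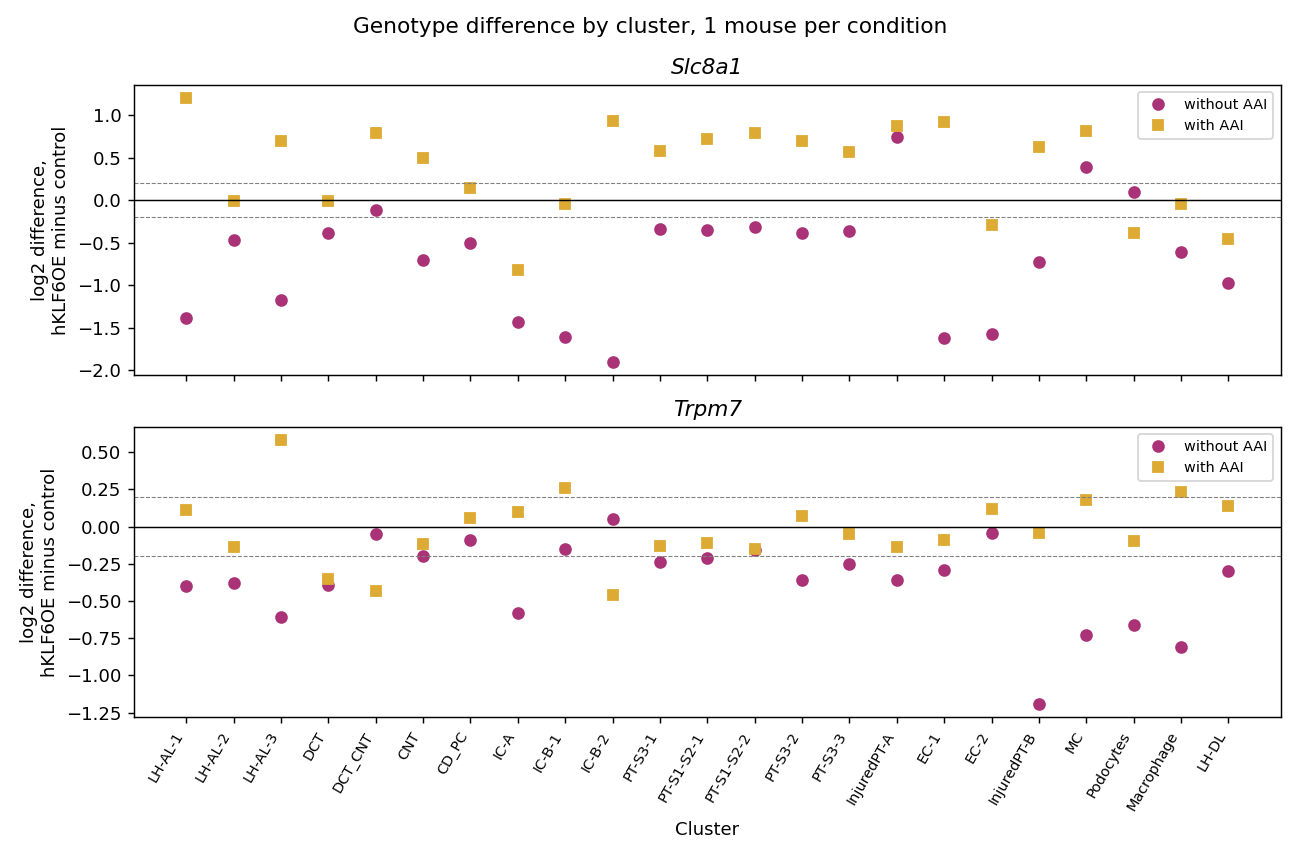
Difference of log2(value + 1) between hKLF6OE and control for *Slc8a1* and *Trpm7* in 23 clusters, without AAI (circles) and with AAI (squares), 1 mouse per condition, with dashed lines at the threshold of 0.2 in either direction. Without AAI *Trpm7* lies below 0 in 22 clusters and *Slc8a1* in 20, and with AAI *Slc8a1* lies above 0 in 15.

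Gene span moved with this comparison. In DCT, among genes over 100 kb 25.6% were lower and 3.47% higher in hKLF6OE without AAI, and among genes under 30 kb 9.86% were lower and 25.3% higher. Of the 5 members over 100 kb, 4 were lower (*Trpm6*, *Slc8a1*, *Atp2b4* and *Cnnm2*). *Trpm7* falls among genes of 30 to 100 kb, of which 15.6% were lower, and *Calb1*, which was lower by the most, falls among genes under 30 kb. The part of span in the members' values was not tested.

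After AAI in the control genotype, *Calb1* was lower in 4 of the 5 distal clusters over its minimum. The differences were -0.95 in CNT (8.65 against 17.6), -0.75 in DCT (10.2 against 17.8), -0.41 in DCT_CNT and -0.42 in LH-AL-1. Over all 23 clusters *Calb1* was lower in 5 and higher in 8 of the 17 over the minimum, with a median of 0.15. In DCT *Cnnm2* (-0.29) and *Atp2b4* (-0.29) were also lower, *Atp2b1* (0.21) and *Casr* (0.20) were higher, and *Trpm6* (-0.17), *Trpm7* (-0.11) and *Slc8a1* (-0.11) were within the threshold. Thus 3 of 8 members were lower and 2 higher in DCT, where 12% of all genes were lower and 18% higher. In CNT 5 of 9 members were lower, among them *Trpm6* at -0.94 (2.18 against 5.1), *Cnnm2* at -0.56, *Atp2b4* at -0.53 and *Slc8a1* at -0.32, and only *Trpv5* was higher (0.22), where 17.5% of all genes were lower and 23.4% higher. Over the 6 clusters 16 of 42 pairs were lower and 9 higher, against 22.7% and 24.6% of all pairs.

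After AAI in the hKLF6OE genotype the members were more often higher. *Slc8a1* was higher in all 6 clusters, by 0.88 in CNT (412 against 223), 0.61 in DCT_CNT, 0.27 in DCT, 1.26 in LH-AL-1, 1.35 in LH-AL-2 and 1.06 in LH-AL-3. In DCT *Atp2b4* (0.33) and *Atp2b1* (0.27) were higher too, none of the 8 was lower, and 26.2% of all genes were higher and 16.2% lower. *Calb1* was within the threshold in DCT (0.16) and CNT (-0.12), higher in LH-AL-1 (0.34) and lower in LH-AL-3 (-1.16). *Cnnm2* was lower in CNT (-0.40) and DCT_CNT (-0.36), and *Casr* was higher in LH-AL-1 (0.95) and LH-AL-2 (0.37) and lower in LH-AL-3 (-0.83). Over the 6 clusters 19 of 42 pairs were higher and 4 lower, against 28.9% and 24.8% of all pairs. In DCT, 44.5% of genes over 100 kb and 8.84% of genes under 30 kb were higher in this comparison. Of the 5 members over 100 kb, *Slc8a1*, *Atp2b1* and *Atp2b4* were higher there, and *Trpm6* (0.13) and *Cnnm2* (0.02) were within the threshold. The part of span in these values was not tested.

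Between the AAI-treated mice, 16 of 42 pairs were higher and 6 lower in hKLF6OE, against 17.8% and 22.7% of all pairs. In DCT *Trpm7* (-0.35) and *Casr* (-0.24) were lower and *Calb1* (0.32) was higher, where 12% of all genes were lower and 6.78% higher, and *Trpm6* was -0.16. In CNT *Calb1* (0.60), *Slc8a1* (0.49), *Cnnm2* (0.49), *Atp2b4* (0.34) and *Trpm6* (0.23) were higher and *Casr* was lower (-0.23), where 10.6% of all genes were higher and 20.4% lower. *Slc8a1* also differed by 0.79 in DCT_CNT and 1.20 in LH-AL-1, and in DCT by -0.01. *Atp2b4* in LH-AL-3 was lower in hKLF6OE with AAI (-1.42) as it was without AAI (-1.34).

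The AAI difference passed the threshold in opposite directions in the 2 genotypes for 10 of the 41 member and cluster pairs over the minimum in both, or 24.4%, against 9.14% of all pairs. *Slc8a1* accounted for 4 of them, in CNT, DCT_CNT, LH-AL-1 and LH-AL-3, always lower with AAI in control and higher with AAI in hKLF6OE. Of the 10 pairs, 4 lay in LH-AL-3 (*Slc8a1*, *Trpm7*, *Atp2b1* and *Casr*), and *Casr* was the only one with AAI higher in control and lower in hKLF6OE.

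**Figure D5:**
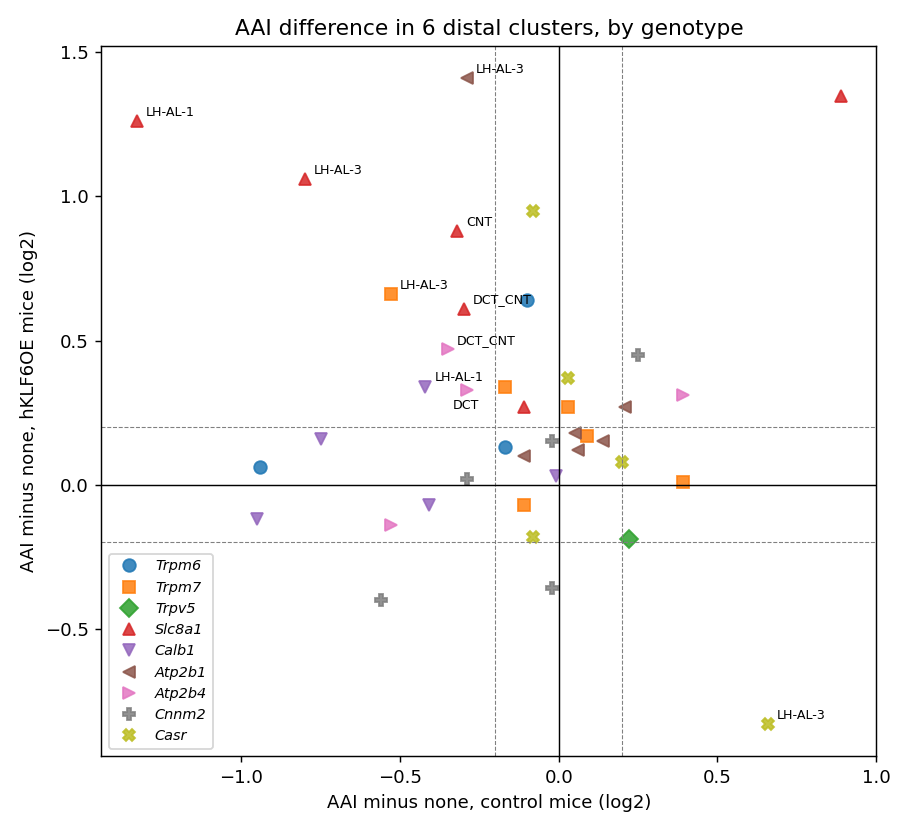
Difference of log2(value + 1) between AAI and none in control (horizontal) and hKLF6OE (vertical) mice, 1 point for each member in each of the LH-AL clusters, DCT, DCT_CNT and CNT where it passed the minimum in both, with dashed lines at the threshold of 0.2 in either direction. Pairs past the threshold in opposite directions are labelled with their cluster, and most lie in the upper left, where AAI is lower than none in control and higher in hKLF6OE.

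The mice also differed in *Slc8a1* outside the distal clusters, and hKLF6OE was the lowest mouse in 16 of all 23 clusters. Its mean over the 5 normal PT clusters was 1.2 in control, 0.816 in control with AAI, 0.726 in hKLF6OE and 1.9 in hKLF6OE with AAI, and in 3 of these 5 clusters the order of the mice was that of CNT. In LH-AL-1 it was 4.64, 1.24, 1.15 and 4.14, and the DCT markers without *Trpm6* summed there to 10.4, 7.36, 6.04 and 9.36. In IC-A *Slc8a1* was 27.2, 57.3, 9.48 and 32, and *Slc12a3* was 11, 11, 3.82 and 4.94. In CNT itself the 3 markers that are no members, *Scnn1b*, *Scnn1g* and *Klk1*, summed to 22, 19.3, 27.2 and 20.2, an order unlike that of *Slc8a1*. The part of RNA from distal cells in the values of other clusters was not tested.

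In the proximal tubule, the site of AAI injury, few members could be compared. Over the mean of the 5 normal PT clusters, *Slc8a1* was lower with AAI in control (-0.28), the only call among 4 members over the minimum, where 456 of 4052 genes were lower and 11.7% were higher. In hKLF6OE, *Slc8a1* (0.75), *Atp2b1* (0.25) and *Trpm7* (0.20) were higher among 5, where 19.5% of genes were higher and 15.4% lower. *Trpm7* was 5.21 in control, 5.36 in control with AAI, 4.25 in hKLF6OE and 5.03 in hKLF6OE with AAI, so the uninjured hKLF6OE mouse was the lowest.

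The injured clusters InjuredPT-A and InjuredPT-B were compared with the normal PT clusters of the same AAI-treated mouse. In InjuredPT-A *Slc8a1* (0.74 in control with AAI and 0.93 in hKLF6OE with AAI) and *Calb1* (0.42 and 0.61) were higher in both mice, 2 of 5 members, with 43.3% of all genes called up and 27% called down. There *Slc8a1* was 2.03 and 4.54, against 0.816 and 1.9 in normal PT. In the same mice the CNT markers that are no members summed to 2.54 and 4.28 in InjuredPT-A. Normal PT clusters held 0.882 to 2.21 and 1.22 to 2.39 of them. The DCT markers without *Trpm6* were 6.21 and 8.8 in InjuredPT-A, against 4.96 to 6.32 and 5.69 to 6.89. The part of RNA from distal cells in these values was not tested. In InjuredPT-B *Slc8a1* (0.35 and 0.30) and *Atp2b1* (0.23 and 0.45) were higher, again 2 of 5, with 23.4% of genes called up and 13.1% called down. The median of all genes was itself 0.17 in InjuredPT-A and 0.11 in InjuredPT-B. Relative to it, *Atp2b1* in InjuredPT-B was no longer past the threshold in both mice (0.12 and 0.35), and *Trpm7* in InjuredPT-A was lower in both (-0.32 and -0.34). As deposited, *Trpm7* (-0.12 and -0.19) and *Cnnm2* (-0.12 and 0.08) in InjuredPT-A were within the threshold, and *Trpm6*, *Trpv5*, *Atp2b4* and *Casr* were under the minimum in both injured clusters.

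The wider set of 44 calcium and magnesium genes, of which 42 are held, showed the members' neighbours in the pathway. Of 7 other calcium transport genes held, 3 reached a cluster mean of 0.5: the calcium-binding *S100g* (calbindin-D9k), highest in CNT at 4.07, *Pvalb* (parvalbumin), highest in DCT at 0.75, and the pump *Atp2b2*, highest in CD_PC at 2.53 and next in CNT at 2.11. Among hormones and regulators, *Vdr*, the vitamin D receptor, and *Kl* (klotho), the coreceptor for FGF23, were both highest in CNT and second in DCT, where *Vdr* averaged 8.28 and *Kl* 5.92 against 12 for *Kl* in CNT, and *Gnaq* was highest in IC-B-2 at 9.63. Of the paracellular genes, *Umod* was 37.5 in LH-AL-2 and 37 in LH-AL-1, *Cldn16* was highest in LH-AL-2 at 1.78, and *Cldn10* was highest in PT-S3-1 at 4.42. Of the 20 other magnesium genes held, 15 reached a cluster mean of 0.5, and 0 of these were highest in DCT, DCT_CNT or CNT, against 5 in the LH-AL clusters. *Egf*, which stimulates TRPM6, was 132 in LH-AL-2, 93.8 in LH-AL-1 and 51.7 in DCT, *Fxyd2*, a subunit of the sodium pump, was highest in LH-AL-2 at 13.9, and the potassium channel subunit *Kcnj16* was highest in PT-S1-S2-1 at 8.7.

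Their calls in DCT are given beside the all-gene shares above. In hKLF6OE without AAI 2 of 23 over the minimum were lower and 6 higher, with a median of -0.03, where 16.7% of all genes were lower and 10.1% higher. With AAI in control 4 were higher and 4 lower of 23, against 18% and 12% of all genes. With AAI in hKLF6OE 4 were higher and 10 lower of 24, against 26.2% and 16.2%. Among all genes under 30 kb 40.2% were lower there, and the part of span in the calls of these lists was not tested. Between the AAI-treated mice 3 were higher and 2 lower of 22, against 6.78% and 12%. Called the same way with AAI in both genotypes were *Kcnj16* (0.37 in control and 0.73 in hKLF6OE), *Gnaq* (0.22 and 0.50) and *Egfr* (0.23 and 0.20), which were higher, and *Pvalb* (-0.69 and -0.90), *Fxyd2* (-0.44 and -0.90) and *Cldn10* (-0.21 and -0.28), which were lower. *Pvalb* in DCT was 1.18 in control, 0.351 in control with AAI, 1.25 in hKLF6OE and 0.21 in hKLF6OE with AAI, so both AAI-treated mice lay below both others. *Egf* in DCT was 50.7, 56.6, 67.2 and 32.4 in the same order, lower only in hKLF6OE with AAI.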

How the data were processed

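Nuclei of kidney cortex from 4 mice were profiled on the 10x Chromium system, 1 mouse per condition. Reads were counted by the authors in Cell Ranger against mm10 pre-mRNA, so that intronic reads are included. Nuclei with few or very many detected genes, or much mitochondrial RNA, were dropped before clustering in Seurat, and removal of doublets is not given for these data in the sources used here. The deposited values are signal, on a linear scale: counts scaled to 10000 per nucleus and averaged by the authors over the nuclei of 1 cluster and 1 mouse. The unit was read from the values, since each of 92 columns sums to 10000. Of 19632 rows, 23 with date-like names were left out. The 23 cluster numbers took their names from the sheet order in the marker workbook of the study and were checked on markers.

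Differences were taken as log2(value + 1) and called from 0.2 up or down, provided that the higher of the compared values reached 0.5. Cluster levels were ordered by the unweighted mean of 4 mice, and neighbours were said to differ beyond their spread where their ranges over the mice did not overlap. Each range holds condition and mouse together. Injured clusters were compared with the mean of the 5 normal PT clusters of the same mouse, and a gene was called where both AAI-treated mice agreed in direction. Gene span was the genomic span in GENCODE vM21. Named besides the members were the 3 genes most like each, the 3 highest genes of each wider list and list genes called alike with AAI in both genotypes. The 9 members and the lists were chosen with earlier results of these data known. The difference calls were tested on simulated data, which checks that they work as written. That run gives no rate of false calls between single mice. Python 3.11.15, numpy 2.4.6, pandas 2.3.3 and matplotlib 3.10.9 were used. The closing section gives the alternatives tried.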

Additional observations from a re-analysis of the deposited data

Results flagged for a closer look

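In 10 of the 41 pairs of member and cluster over the minimum in both genotypes, the AAI difference passed 0.2 in opposite directions. That is 24.4%, against 9.14% of all pairs. Each value below rests on 4 single mice, and the difference between genotypes was not tested. Given as the log2 AAI difference in hKLF6OE minus that in control, *Slc8a1* differed by 2.59 in LH-AL-1 (-1.33 in control and 1.26 in hKLF6OE), 1.87 in LH-AL-3, 1.21 in CNT (-0.32 and 0.88) and 0.91 in DCT_CNT (-0.30 and 0.61). In LH-AL-1 it was 4.64 in control, 1.24 in control with AAI, 1.15 in hKLF6OE and 4.14 in hKLF6OE with AAI. The DCT markers without *Trpm6* summed there to 10.4, 7.36, 6.04 and 9.36. The part of RNA from distal cells in that cluster was not tested. The values for *Atp2b4* were 0.82 in DCT_CNT (-0.35 and 0.47) and 0.63 in DCT (-0.29 and 0.33). *Calb1* in LH-AL-1 gave 0.76, from levels of 0.935 in control, 0.45 in control with AAI, 0.574 in hKLF6OE and 0.994 in hKLF6OE with AAI. In LH-AL-3, where 60.5 to 63.4% of genes were at 0, *Atp2b1* gave 1.70, *Trpm7* 1.19 and *Casr* -1.48.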

How the results depend on the processing

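Each comparison has 1 mouse per condition, so no replicate could be left out and no value carries an error. No paired analysis was possible because the conditions share fewer than 2 replicate numbers. The number of member and cluster pairs called in the 6 distal clusters was 25 for AAI in control, 23 for AAI in hKLF6OE, 29 for hKLF6OE without AAI and 22 for hKLF6OE with AAI. In the same order, it was 11, 11, 13 and 9 with a threshold of 0.5, 1, 5, 6 and 2 with a threshold of 1, and 15, 9, 13 and 13 in DCT, DCT_CNT and CNT alone. A minimum of 2 gave 14 for hKLF6OE with AAI. Without LH-AL-3, an alternative chosen after seeing the data, the counts were 19, 17, 23 and 17.

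InjuredPT-A went from 2 calls to 1 with a minimum of 2, 1 with a threshold of 0.5 and 0 with a threshold of 1. InjuredPT-B went from 2 to 0 under each of these and to 1 when centred on the median of all genes. In normal PT the 1 call with AAI in control was lost (0) under the same 3 settings, and the 3 calls in hKLF6OE went to 1, 1 and 0. A pseudocount of 0.1 and no minimum kept every count within 1.5 times, and no called difference of a member in DCT changed sign with that pseudocount or with centring. For single members in DCT, centring put *Trpm6* (-0.20, AAI in control) at the threshold and took *Slc8a1* (0.19) and *Atp2b1* (0.19) with AAI in hKLF6OE, and *Atp2b1* (0.18) and *Casr* (0.17) with AAI in control, under it, and a pseudocount of 0.1 brought *Casr* to the threshold with AAI in hKLF6OE (0.20) and past it in hKLF6OE without AAI (-0.28). With Spearman's rho, at most 1 of the 3 most similar genes of any member was the same. The cause of these changes was not tested, apart from the fewer clusters or pairs that a setting leaves.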
